A study of Mus musculus with 24 samples.

Results

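Cadherins and protocadherins are calcium-dependent adhesion proteins of the cell surface, and their genes were followed by RNA sequencing across 8 lines of mouse astrocytes. The members were chosen by name, as every protein-coding gene of the count table whose GENCODE M21 symbol is Cdh followed by a number or begins with Pcdh. The table itself was filtered on level, so a member had to reach 1 CPM in some libraries to be followed. The annotation holds 92 such genes, and 34 of them are among the 14427 genes of the table. They comprise 10 classical cadherins (4 of type I and 6 of type II), 4 other Cdh genes, 13 rows of the clustered protocadherins (1 alpha, 11 beta and 1 gamma) and 7 non-clustered protocadherins.

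Classical cadherins bind each other between neighbouring cells through their outer repeats and hold catenins with their inner tail, which links the junction to actin; Cdh2, the N-cadherin, is known as the main classical cadherin of neural cells and of astrocytes. Clustered protocadherins lie in 3 arrays on one chromosome, alpha, beta and gamma, and neural cells use different sets of them as identity marks, with the start sites chosen through CTCF, cohesin and DNA methylation. Non-clustered delta protocadherins are weaker adhesion molecules whose tails hold other partners. Among these are a phosphatase for the delta-1 group and the WAVE complex, which regulates actin, for the delta-2 group.

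All 8 lines derive from cortical astrocytes of postnatal day 1 Trp53 f/- pups on a C57BL/6 background, that is with 1 floxed and 1 deleted Trp53 allele, pooled from several pups into 1 male and 1 female culture and used at passages 10 to 15 in DMEM/F12 with 10% FBS. Every line received a lentivirus with Cre recombinase and puromycin resistance, which removed the floxed allele, and the male p53 KO and female p53 KO lines carry nothing more. The male and female p53R172H, p53Y202C and p53Y217C lines had before that received a retrovirus that overexpresses the mutant Trp53 with eGFP, and were sorted for eGFP. Each line has 3 libraries, which the study describes for its cell experiments as separate thaws and platings, so the mutation cannot be told apart from the transduction, the sort and the history of 1 line, nor sex from the culture of 1 pool of pups.

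The 24 libraries hold between 52787288 and 136503809 counts, so that 3 counts, taken as the floor, correspond to between 0.0229 and 0.05599 in counts-per-million (CPM, on library totals scaled by TMM factors). Trp53 stood at 50.9 and 48.9 CPM in the p53 KO lines and between 593 and 3709 in the mutant lines. Both Gfap and Aqp4, defining astrocyte markers, were low: Gfap, the astrocyte filament protein, had a mean of at most 0.257 CPM in 7 of the 8 lines and 6.93 in male p53Y217C, while Aqp4, the water channel of astrocyte endfeet, was at 1.77 in male p53Y202C, at 8.06 in male p53Y217C and at or below 0.113 in the other 6 lines. Sox9, a glial transcription factor, lay between 79.96 and 183 CPM, and Col1a1, the collagen of fibroblasts, between 3361 and 21776. The sum of the 9 listed astrocyte markers lay between 200.5 CPM in male p53Y202C and 639.9 in female p53R172H, and came mostly from Slc1a3, Gja1 and Sox9. It was above the neuron sum and below the fibroblast and mural sum in every line. In female p53Y202C it was also below the oligodendrocyte lineage sum (347 against 383 CPM). These sums cover unequal numbers of genes, so their order does not rank cell types. Of the markers of other cells, the sum of the 4 listed neuron markers lay between 112 and 178 CPM over the line means, that of the 4 oligodendrocyte lineage markers between 65.6 and 383, and that of the 7 fibroblast and mural markers between 11146 and 40764, while 1 of 6 microglia markers is in the table, at no more than 2.93. The study assessed the purity of its astrocytes by GFAP immunofluorescence, a measure of protein, and describes it with the cultures before transduction. That staining was not analysed here. In such bulk samples fewer cells that express a gene and less RNA per cell cannot be told apart.

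The sequence before the start site differed widely among the members. The 250 bases before it, from RefSeq on GRCm38.p6, were given for 12 members. Shown here are 5 of them, a gene with a mean above 1 CPM in 1 line only (Cdh22), the 3 non-clustered protocadherins with the highest levels (Pcdh18, Pcdh19 and Pcdh7) and the promoter without a CG (Cdh26), each 5′ to 3′ with every CG dinucleotide in capitals.
Cdh22: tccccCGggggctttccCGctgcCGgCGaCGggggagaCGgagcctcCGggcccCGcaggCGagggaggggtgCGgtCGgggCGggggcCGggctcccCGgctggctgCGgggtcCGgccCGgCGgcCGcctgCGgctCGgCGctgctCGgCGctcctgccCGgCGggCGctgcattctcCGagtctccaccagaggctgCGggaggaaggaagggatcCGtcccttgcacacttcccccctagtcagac
Pcdh18: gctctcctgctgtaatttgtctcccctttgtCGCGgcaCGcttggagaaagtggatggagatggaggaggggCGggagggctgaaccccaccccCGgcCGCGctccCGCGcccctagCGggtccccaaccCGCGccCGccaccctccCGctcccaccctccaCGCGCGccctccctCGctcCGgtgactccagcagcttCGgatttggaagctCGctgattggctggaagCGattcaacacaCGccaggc
Pcdh19: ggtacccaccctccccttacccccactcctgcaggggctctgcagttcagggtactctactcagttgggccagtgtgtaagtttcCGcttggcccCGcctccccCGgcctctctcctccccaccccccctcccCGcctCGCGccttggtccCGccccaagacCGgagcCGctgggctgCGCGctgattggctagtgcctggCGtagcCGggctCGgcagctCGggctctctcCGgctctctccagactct
Pcdh7: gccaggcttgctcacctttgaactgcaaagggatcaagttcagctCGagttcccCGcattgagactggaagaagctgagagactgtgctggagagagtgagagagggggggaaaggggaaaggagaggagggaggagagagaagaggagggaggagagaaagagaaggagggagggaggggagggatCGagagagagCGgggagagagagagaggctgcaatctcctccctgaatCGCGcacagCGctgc
Cdh26: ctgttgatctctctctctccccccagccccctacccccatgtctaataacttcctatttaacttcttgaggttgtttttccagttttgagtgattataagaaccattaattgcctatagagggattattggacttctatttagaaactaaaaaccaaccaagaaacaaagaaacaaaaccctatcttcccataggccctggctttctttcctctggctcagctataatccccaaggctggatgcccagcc
These stretches lie at chr2:165234738-165234987 (minus strand), chr3:49757317-49757566 (minus strand), chrX:133688994-133689243 (minus strand), chr5:57717831-57718080 (plus strand) and chr2:178430265-178430514 (plus strand). They held 30 CG dinucleotides for Cdh22, 23 for Pcdh18, 16 for Pcdh19, 7 for Pcdh7 and 0 for Cdh26. The ratio of observed to expected CG was above 0.6 in 5 of the 12 members, against 68.7% of the 10286 promoters of genes in the table. The motifs CAGGTG and CACCTG, which are reverse complements of each other and the letters that Snail and Zeb proteins bind in the E-cadherin promoter, were found in 0 of the 12 and in 14.4% of all. The 12 do not include Cdh1, the E-cadherin gene, nor Cdh2, Cdh3, Cdh5 and Cdh11, and are too few to read the 0 as a lack of these motifs. The start site used lies 487441 bases from the GENCODE 5′ end of the gene for Cdh18 and 1382 bases for Cdh10. The CG-rich stretch of Cdh22 belongs to a gene above 1 CPM in 1 line only, and the CG-rich stretch of Pcdh18 to a gene whose lowest line mean was 52.6 CPM.

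Of the 34 members, 16 were above 1 CPM in all 24 libraries and 2, Cdh22 and Pcdhb15, had a mean above 1 CPM in 1 line only. Per kilobase of exon that belongs to 1 gene, Cdh2 led with a mean of 50.3 CPM per kb over the 24 libraries, followed by Cdh11 (41.7), Pcdh19 (20.8), Pcdh18 (16.7), Pcdh7 (11.1) and Cdh3 (8.62). The alpha and gamma rows are left out of this order, since their counted length is not known. Without scaling by length the gamma row had the highest mean of all members, 562 CPM against 406 for Cdh2. The table lists a gene only if it is above 1 CPM in at least 3 libraries, so a member that passed through 1 line alone had to differ between lines. The members not in the table are Cdh4, Cdh6, Cdh7, Cdh8, Cdh9, Cdh12, Cdh16, Cdh19, Cdh20, Pcdh8, Pcdh12, Pcdh15, Pcdh17, Pcdh20, 11 beta genes and the single alpha and gamma genes described with the clusters.

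**Figure D1:**
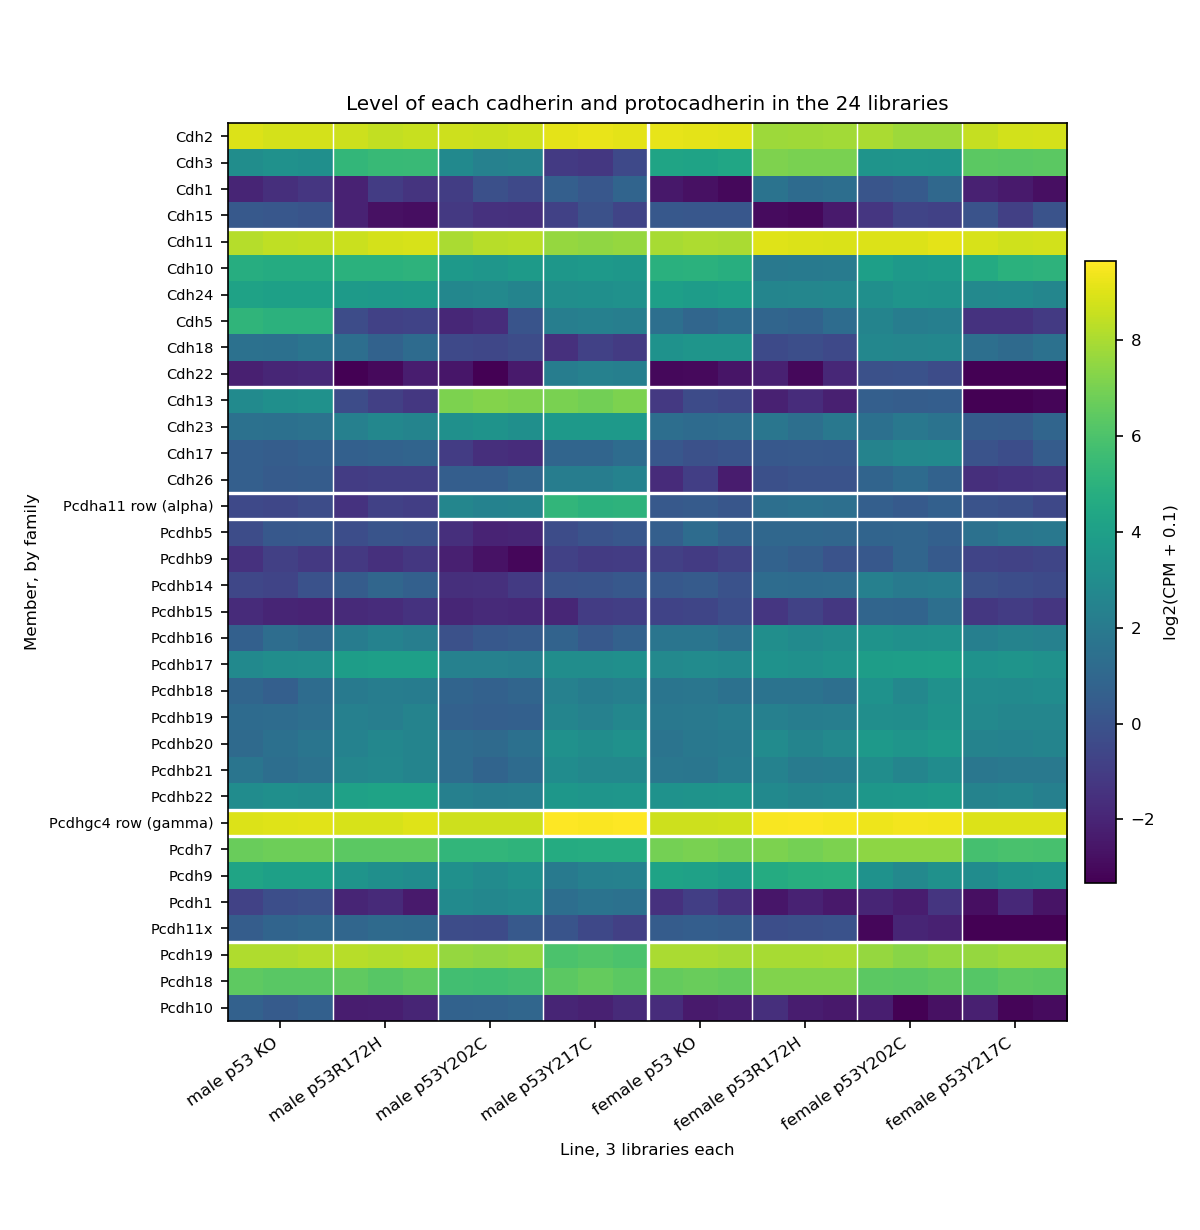
Level of each of the 34 members in the 24 libraries, as log2(CPM + 0.1), with members in rows grouped by family (type I and type II classical cadherins, other Cdh genes, alpha, beta and gamma rows, delta-1 and delta-2 protocadherins) and libraries in columns, 3 for each line. Cdh2, Cdh11, Pcdh19 and the gamma row are bright in every column, while Cdh22, Cdh13, Pcdh1 and the alpha row are bright in 1 or 2 lines.

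Cdh2 and Cdh11 were the main classical cadherins of every line. Cdh2, the N-cadherin, was at 499, 455 and 453 CPM in p53 KO, 409, 349.6 and 374 in p53R172H, 409, 389.5 and 419 in p53Y202C, and 563, 589.9 and 561 in p53Y217C among the male lines. Among the female lines it was at 579, 564 and 541 CPM in p53 KO, 212, 219 and 229 in p53R172H, 258, 215 and 218 in p53Y202C, and 360.3, 437 and 442 in p53Y217C. The libraries of female p53R172H and female p53Y202C lay below those of every other line.

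Cdh11, a type II cadherin of mesenchymal cells, went the other way except in male p53Y202C, where the means of both genes were below p53 KO. It stood at 295, 342 and 356 CPM in p53 KO, 389.9, 452 and 469 in p53R172H, 258, 306 and 314 in p53Y202C, and 191, 181 and 197 in p53Y217C for the males, and at 249, 266 and 255 CPM in p53 KO, 525, 505 and 479 in p53R172H, 506, 501 and 559 in p53Y202C, and 463, 421 and 441 in p53Y217C for the females. Its lowest libraries were those of male p53Y217C, where the mean of Cdh2 was highest, and its highest libraries were those of female p53R172H and female p53Y202C. Across the 8 line means the rank correlation of the 2 genes was -0.86, a description over lines that share their culture within a sex.

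The counts of Cdh2 exceeded those of Cdh11 by 3.02 ± 0.213 times in male p53Y217C, and the ratio was 0.438 ± 0.0373 in female p53R172H (SD, n = 3). In the p53 KO lines it was 1.43 ± 0.226 for males and 2.19 ± 0.1197 for females. Both genes together made up between 82.9% (female p53R172H) and 96.3% (male p53Y202C) of the summed CPM of the 10 classical cadherins, which itself lay between 726 and 977 CPM.

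Cdh3, the P-cadherin of epithelia and myoepithelium, had the widest range of the 3 classical cadherins above 100 CPM in any line. The male values were 8.05, 9.301 and 8.77 CPM in p53 KO, 37.7, 42.6 and 43.6 in p53R172H, 7.09, 5.04 and 5.41 in p53Y202C, and 0.362, 0.323 and 0.616 in p53Y217C. The female values were 18.96, 18.3 and 20.5 CPM in p53 KO, 139.7, 132 and 131 in p53R172H, 10.4, 10.96 and 10.3 in p53Y202C, and 82.3, 80.98 and 82.6 in p53Y217C. The highest line mean, in female p53R172H, was 309.7 times the lowest, in male p53Y217C, and no library of female p53R172H or female p53Y217C overlapped with any of another line.

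Cdh5, the VE-cadherin of endothelial junctions, was highest in male p53 KO. Its values were 35.5, 31.8 and 32.7 CPM in p53 KO, 0.707, 0.461 and 0.509 in p53R172H, 0.1701, 0.217 and 0.946 in p53Y202C, and 4.604, 4.903 and 4.57 in p53Y217C for males, and 2.53, 1.87 and 2.19 CPM in p53 KO, 1.802, 1.61 and 2.29 in p53R172H, 5.58, 4.37 and 4.71 in p53Y202C, and 0.2702, 0.267 and 0.355 in p53Y217C for females. All 3 libraries of male p53 KO were above 30 CPM and all other libraries below 6. The other endothelial markers did not follow this order: of 6 fixed markers Pecam1, Cldn5, Tie1 and Emcn are not in the table, and the sum of Kdr and Tek was 11.95 CPM in male p53 KO within a range of 2.62 (male p53Y217C) to 16.4 (female p53 KO).

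Cdh10, Cdh24 and Cdh18 are type II cadherins best known from the brain. Cdh10 read 27.5, 25.5 and 25.3 CPM in p53 KO, 30.9, 30.99 and 33.4 in p53R172H, 12.9, 11.3 and 13.1 in p53Y202C, and 11.5, 12.4 and 11.5 in p53Y217C in the male lines and 30.3, 30.8 and 27.5 CPM in p53 KO, 3.68, 3.86 and 4.101 in p53R172H, 15.9, 12.7 and 13.6 in p53Y202C, and 24.2, 31.4 and 32.9 in p53Y217C in the female lines. Female p53R172H was the lowest line, below 5 CPM in its 3 libraries, while male p53R172H had the highest mean.

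Cdh24 varied less, with male values of 17.5, 16.4 and 16.6 CPM in p53 KO, 13.2, 12.5 and 13.4 in p53R172H, 6.395, 6.73 and 5.704 in p53Y202C, and 8.27, 8.76 and 9.49 in p53Y217C. Its female values were 15.96, 14.5 and 15.9 CPM in p53 KO, 5.903, 6.08 and 6.33 in p53R172H, 8.604, 10.3 and 10.1 in p53Y202C, and 6.75, 7.17 and 6.09 in p53Y217C. Both p53 KO lines were above every mutant line, and the highest line mean was 2.76 times the lowest.

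Cdh18 was also highest in a p53 KO line. In males it was at 2.78, 2.65 and 3.19 CPM in p53 KO, 2.52, 1.59 and 2.19 in p53R172H, 0.631, 0.569 and 0.702 in p53Y202C, and 0.2495, 0.479 and 0.375 in p53Y217C, and in females at 9.65, 10.8 and 10.9 CPM in p53 KO, 0.646, 0.757 and 0.633 in p53R172H, 6.33, 6.09 and 6.24 in p53Y202C, and 2.55, 2.13 and 2.79 in p53Y217C. Female p53 KO led, followed by female p53Y202C, and male p53Y202C, male p53Y217C and female p53R172H stayed below 1 CPM in every library.

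The remaining classical cadherins were low. Cdh1, the E-cadherin of epithelia, had its highest means in female p53R172H (2.55 ± 0.397 CPM, SD, n = 3), male p53Y217C (1.39 ± 0.328 CPM) and female p53Y202C (1.37 ± 0.514 CPM), and was at or below 0.619 CPM in the other lines. Cdh15, the M-cadherin of muscle, stood at 1.05 ± 0.111 CPM in male p53 KO and 1.05 ± 0.0163 CPM in female p53 KO and had a lower mean in every mutant line, down to 0.0482 CPM in female p53R172H. Cdh22 reached 4.72 ± 0.2898 CPM in male p53Y217C, 0.801 in female p53Y202C and at most 0.154 elsewhere, with 0 counts in all libraries of female p53Y217C.

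**Figure D2:**
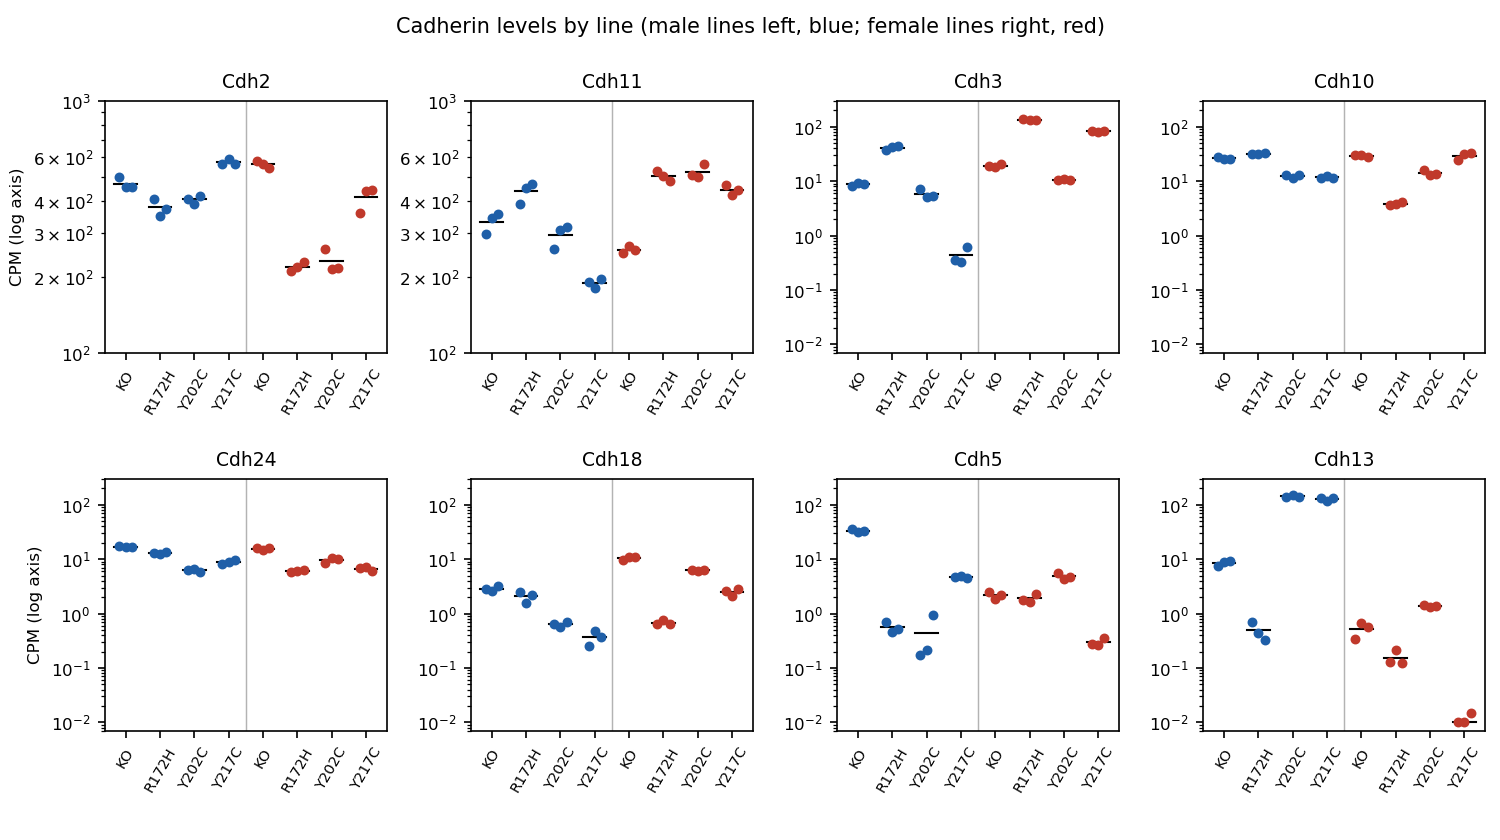
CPM of 8 cadherins in every library on log axes, with points for libraries, black bars for line means, male lines in blue and female lines in red; values under 0.01 CPM are drawn at 0.01. Cdh2 and Cdh11 stay within 1 decade (100 to 1000 CPM), Cdh5 stands apart in male p53 KO, and Cdh13 is near 100 CPM in male p53Y202C and male p53Y217C only.

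Among the other Cdh genes, Cdh13 and Cdh23 were highest in the same 2 male lines, and their library values are given although the naming rule did not call for them. Cdh13, the T-cadherin, is anchored by lipid, lacks the inner tail and binds adiponectin. It was at 7.37, 8.705 and 9.28 CPM in p53 KO, 0.697, 0.448 and 0.331 in p53R172H, 138, 151 and 142 in p53Y202C, and 133, 117 and 134 in p53Y217C in males and 0.344, 0.679 and 0.5698 CPM in p53 KO, 0.127, 0.213 and 0.122 in p53R172H, 1.42, 1.33 and 1.39 in p53Y202C, and 0, 0 and 0.0148 in p53Y217C in females. Male p53Y202C and male p53Y217C were above 100 CPM in all libraries, male p53 KO was between 7 and 10, and every other library was below 2. The 3 libraries of female p53Y217C held 0, 0 and 1 count.

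Cdh23, which forms the tip links of hair cells, showed the same 2 male lines on top with a smaller range. Its male values were 2.79, 2.71 and 2.86 CPM in p53 KO, 4.93, 6.37 and 5.67 in p53R172H, 9.16, 10.02 and 8.68 in p53Y202C, and 12.5, 12.7 and 12.8 in p53Y217C, and its female values 2.46, 2.23 and 2.405 CPM in p53 KO, 3.35, 2.53 and 3.598 in p53R172H, 2.63, 3.57 and 2.99 in p53Y202C, and 1.28, 1.21 and 1.77 in p53Y217C. Cdh17, the liver-intestine cadherin, was highest in female p53Y202C (6.41 ± 0.811 CPM) and lowest in male p53Y202C (0.278 ± 0.0976 CPM). Cdh26 was highest in male p53Y217C (4.71 ± 0.498 CPM) and lowest in female p53 KO (0.246 ± 0.173 CPM).

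The clustered protocadherins lie on chromosome 18. The beta genes are single-exon genes without a shared tail, whereas each alpha or gamma gene has a variable exon that is spliced to exons shared by its whole cluster. For alpha and gamma the table has 1 row each, with the M21 symbols Pcdha11 and Pcdhgc4. The other 33 single alpha and gamma genes of M21 carry identifiers above the highest identifier in the table, so each of these rows may cover several genes of its cluster in the older annotation of the study. They are therefore called the alpha row and the gamma row here, and neither can be read as 1 isoform.

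The gamma row was among the rows with the most reads, and its counted length is not known. It was at 500.0, 509.8 and 531 CPM in p53 KO, 473, 465 and 512 in p53R172H, 405, 405 and 402 in p53Y202C, and 799, 756 and 803 in p53Y217C in the male lines. It was at 409, 407 and 414 CPM in p53 KO, 744, 753 and 717 in p53R172H, 640.4, 675 and 670.2 in p53Y202C, and 502, 503 and 499 in p53Y217C in the female lines. Male p53Y217C was highest, followed by female p53R172H and female p53Y202C, and the highest line mean was 1.95 times the lowest.

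The alpha row covered a far wider range. Its male values were 0.616, 0.5803 and 0.701 CPM in p53 KO, 0.271, 0.474 and 0.433 in p53R172H, 6.14, 5.200 and 5.51 in p53Y202C, and 36.5, 32.03 and 33.7 in p53Y217C. Its female values were 1.13, 1.204 and 1.01 CPM in p53 KO, 2.58, 2.75 and 2.56 in p53R172H, 1.44, 1.17 and 1.48 in p53Y202C, and 0.881, 0.788 and 0.591 in p53Y217C. Male p53Y217C stood above 30 CPM and male p53Y202C above 5 in all libraries, while every other library was below 3.

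The beta genes in the table are not spread evenly along the cluster: of Pcdhb1 to Pcdhb13 only 2 of 13 are listed, Pcdhb5 and Pcdhb9, and of Pcdhb14 to Pcdhb22 all 9. Pcdhb17 and Pcdhb22 had the highest means. Pcdhb17 was at 7.14, 8.08 and 8.38 CPM in p53 KO, 14.9, 15.7 and 15.8 in p53R172H, 5.04, 5.15 and 4.698 in p53Y202C, and 8.04, 8.01 and 8.74 in p53Y217C in males and at 6.901, 7.62 and 6.95 CPM in p53 KO, 9.65, 8.999 and 9.98 in p53R172H, 14.9, 15.2 and 16.02 in p53Y202C, and 9.66, 10.5 and 9.397 in p53Y217C in females. It was highest in male p53R172H and female p53Y202C and lowest in male p53Y202C.

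Pcdhb22 was at 7.71, 8.69 and 8.202 CPM in p53 KO, 16.9, 18.01 and 18.3 in p53R172H, 4.96, 4.41 and 4.55 in p53Y202C, and 11.7, 10.7 and 11.2 in p53Y217C in males. In females it was at 9.699, 9.99 and 10.3 CPM in p53 KO, 6.96, 5.93 and 6.27 in p53R172H, 11.6, 12.02 and 13.6 in p53Y202C, and 5.54, 5.895 and 4.98 in p53Y217C. Its order differed from that of Pcdhb17, with female p53Y217C and female p53R172H among the lower lines. Together they made up between 31.7% (female p53Y217C) and 53.8% (male p53 KO) of the beta sum.

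The summed level of the 11 beta genes was lowest in male p53Y202C and highest in female p53Y202C. The sums were 27.4, 30.3 and 31.9 CPM in p53 KO, 58.7, 63.9 and 62.7 in p53R172H, 19.5, 18.1 and 19.2 in p53Y202C, and 51.6, 46.5 and 51.4 in p53Y217C for males, and 36.5, 39.2 and 38.9 CPM in p53 KO, 51.7, 45.1 and 47.96 in p53R172H, 84.97, 76.8 and 88.05 in p53Y202C, and 47.8, 49.3 and 47.9 in p53Y217C for females. Over the 8 line means, the 55 pairs of beta genes had a median rank correlation of 0.62, from -0.21 to 0.98, in libraries that share their depth and scaling. The rank correlation of the beta sum with the gamma row was 0.48 and with the alpha row -0.12, also over 8 lines.

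**Figure D3:**
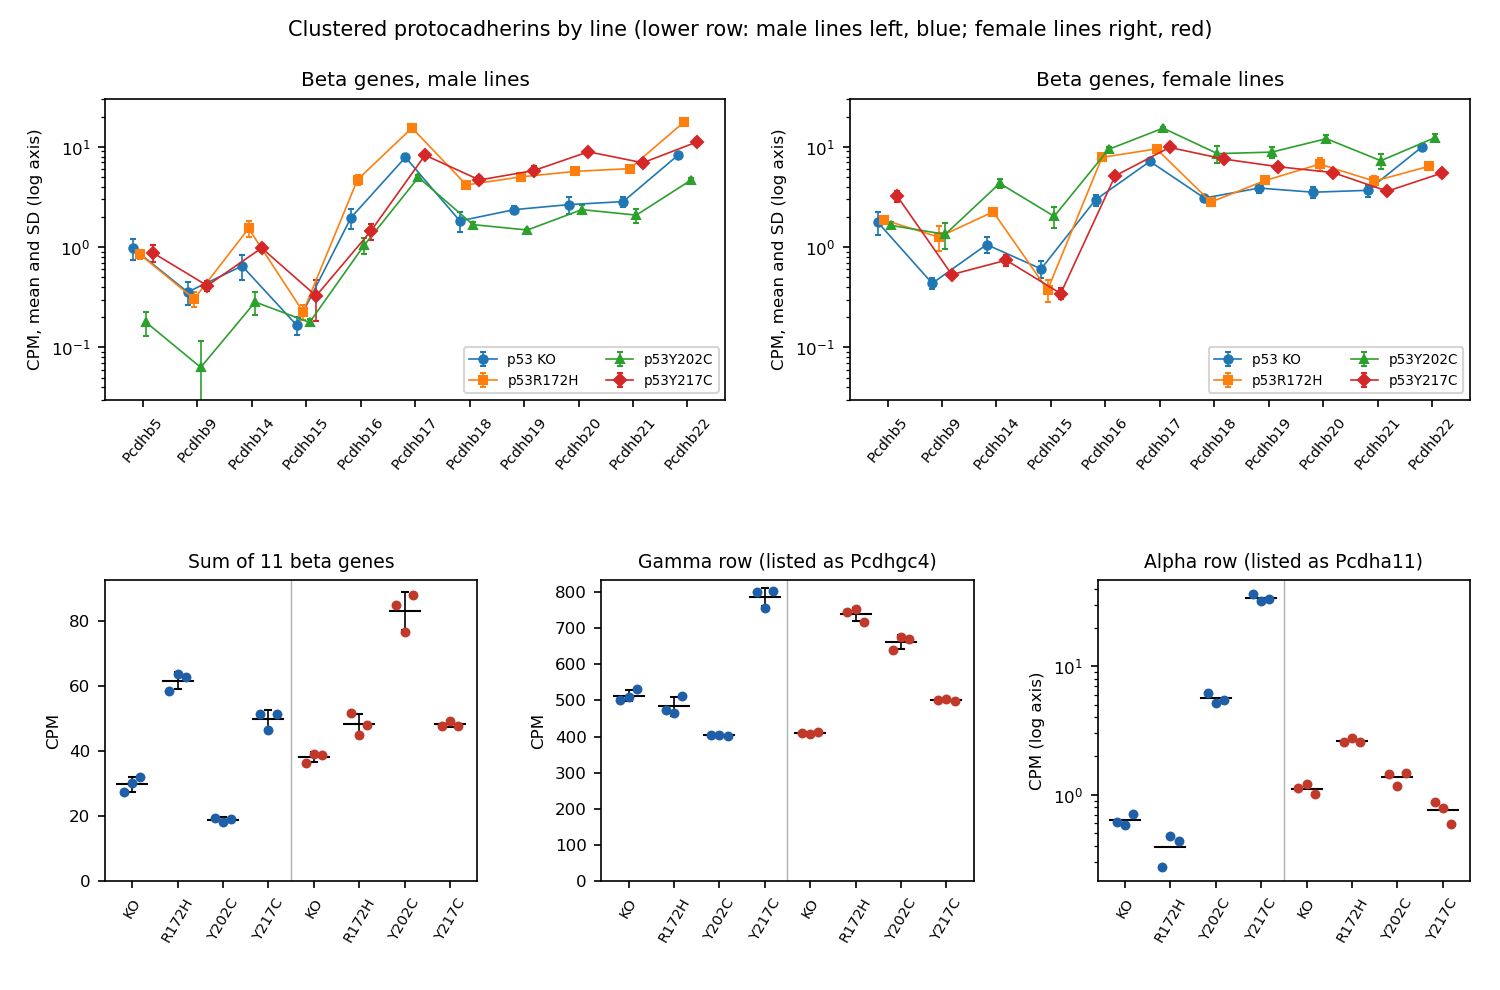
Upper panels: mean and SD over 3 libraries of the CPM of each beta gene on a log axis, in the order of the cluster, for the 4 male and the 4 female lines. Lower panels: CPM in every library with line means, and on the linear axes SD bars, for the beta sum, the gamma row and the alpha row (log axis); male p53Y202C is the lowest line in most beta genes and in their sum, female p53Y202C the highest in the sum.

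The non-clustered protocadherins were led by Pcdh19, an X-linked delta-2 gene that is mutated in a female-limited epilepsy and whose protein pairs with N-cadherin. It was at 273, 274 and 292 CPM in p53 KO, 304, 287 and 307 in p53R172H, 194, 179 and 197 in p53Y202C, and 61.9, 69.4 and 62.8 in p53Y217C in males and 257, 260.5 and 241 CPM in p53 KO, 249, 245 and 261 in p53R172H, 196, 165 and 188 in p53Y202C, and 193, 215 and 216 in p53Y217C in females. Male p53Y217C was the single line under 100 CPM, and the libraries of the other 7 lines lay between 165 and 307.

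Pcdh18, also of the delta-2 group, was the steadiest of them. Its male values were 85.2, 80.7 and 81.7 CPM in p53 KO, 89.1, 78.6 and 85.2 in p53R172H, 52.3, 50.8 and 54.6 in p53Y202C, and 83.7, 96.5 and 83.3 in p53Y217C, and its female values 95.6, 102 and 94.7 CPM in p53 KO, 147, 144 and 145 in p53R172H, 84.5, 81.1 and 86.1 in p53Y202C, and 73.9, 87.4 and 83.1 in p53Y217C. Female p53R172H was the highest and male p53Y202C the lowest line, 2.76 times apart.

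Pcdh7, a delta-1 gene whose protein binds protein phosphatase 1, was at 102, 109 and 111 CPM in p53 KO, 83.3, 81.9 and 83.1 in p53R172H, 36.8, 36.9 and 34.04 in p53Y202C, and 24.9, 25.9 and 25.96 in p53Y217C in males. In females it was at 124, 129 and 118 CPM in p53 KO, 137, 121 and 137 in p53R172H, 175, 177 and 176 in p53Y202C, and 56.4, 60.4 and 59.4 in p53Y217C. Every library of male p53Y202C and male p53Y217C was below every library of the other lines, and female p53Y202C was the highest line. Some of its exons lie opposite an antisense gene, and the strand setting of the counting is not given in the sources used here.

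Pcdh9, of the delta-1 group, was at 18.8, 16.7 and 16.5 CPM in p53 KO, 10.2, 8.71 and 7.85 in p53R172H, 9.15, 7.64 and 9.01 in p53Y202C, and 3.79, 4.93 and 5.13 in p53Y217C in males and 18.3, 17.2 and 14.7 CPM in p53 KO, 25.5, 27.7 and 29.3 in p53R172H, 9.74, 6.77 and 9.49 in p53Y202C, and 7.73, 10.1 and 10.9 in p53Y217C in females. Female p53R172H was highest and male p53Y217C lowest. Pcdh1, a delta-1 gene known from airway epithelium, was at 0.495, 0.755 and 0.815 CPM in p53 KO, 0.155, 0.192 and 0.0892 in p53R172H, 7.34, 6.42 and 7.29 in p53Y202C, and 2.52, 3.001 and 2.79 in p53Y217C in males and 0.265, 0.436 and 0.261 CPM in p53 KO, 0.0742, 0.139 and 0.0838 in p53R172H, 0.149, 0.108 and 0.307 in p53Y202C, and 0.04699, 0.178 and 0.0591 in p53Y217C in females. It was above 2 CPM in male p53Y202C and male p53Y217C, the 2 lines with high Cdh13, and below 1 in all other libraries. Pcdh11x, an X-linked delta-1 gene, ranged up to 2.01 CPM (male p53R172H) and had 0 counts in female p53Y217C, and Pcdh10, of the delta-2 group, reached 1.42 ± 0.179 CPM in male p53 KO and 1.69 ± 0.166 CPM in male p53Y202C and stayed below 0.3 CPM in all other libraries.

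The first question of the design is what each mutant p53 adds to the loss of p53, and each mutant line was compared with the p53 KO line of its sex. The 3 comparisons of a sex share their control libraries. Changes are log2 fold changes with their standard errors from edgeR's quasi-likelihood test, adjusted by Benjamini-Hochberg over all 14427 genes, and a gene was said to rise or fall at an adjusted p of at most 0.05.

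In male p53R172H most clustered protocadherins rose, and 6 of the 10 classical cadherins fell. Of all genes 20.2% rose and 20.5% fell. Among the 10 classical cadherins 3 rose and 6 fell (median log2 fold change -0.34), among the 13 clustered rows 8 rose and 1 fell (median 1.08), and among the other 11 members 1 rose and 6 fell (median -0.38), with a median over all genes of 0.0064. Leaving out 1 library at a time left between 6 and 9 classical cadherins past the threshold. The calls lost were the fall of Cdh22 in 4 fits, the fall of Cdh18 in 2 and the rise of Cdh10 in 3. Cdh3 had the largest rise of the Cdh genes (2.24 ± 0.10, adjusted p = 7.75e-15) and Cdh5 the largest fall (-5.87 ± 0.29, adjusted p = 8.18e-14). Of the clustered rows Pcdhb16 rose most (1.24 ± 0.16, adjusted p = 1.03e-06) and the alpha row fell (-0.72 ± 0.19, adjusted p = 0.0033, and 0.0569 by limma). Pcdh10 fell most of the non-clustered genes (-3.505 ± 0.41, adjusted p = 3.8e-07), of which 0 rose, also at an unadjusted p of at most 0.05, by limma and by DESeq2. Cdh13 also fell (-4.06), while 9 of the 34 members did not pass the test. Of the marker lists, the astrocyte sum was at 355 CPM against 355, the fibroblast and mural sum at 35491 against 30065, the oligodendrocyte lineage sum at 330.0 against 274 and the endothelial sum at 10.6 against 11.95. The equal astrocyte sums hide falls of single markers. Of the 9 astrocyte markers 0 rose and 5 fell (median -1.11), with the same counts at an unadjusted p of at most 0.05 in edgeR and by limma. The part of these markers in the changes of the members was not tested, here or in the other 5 comparisons with p53 KO, where their sums are given as well.

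In male p53Y202C the direction of the beta genes was the opposite. Here 37.6% of all genes rose and 35.4% fell. Of the classical cadherins 1 rose and 9 fell (median -1.24), of the clustered rows 1 rose and 9 fell (median -0.67), and of the other members 3 rose and 6 fell (median -0.55), against a median of 0.012 over all genes. The clustered row that rose was the alpha row (3.15 ± 0.14, adjusted p = 1.97e-15), and Pcdhb5 fell most (-2.42 ± 0.26, adjusted p = 1.26e-08). Cdh13 had the largest rise of the Cdh genes (4.08 ± 0.12, adjusted p = 3.84e-19) and Cdh5 the largest fall (-6.34 ± 0.30, adjusted p = 4.38e-15). Among non-clustered genes Pcdh1 rose (3.33 ± 0.27, adjusted p = 1.04e-10) and Pcdh7 fell most (-1.58 ± 0.05, adjusted p = 5.07e-18). The classical cadherin that rose was Cdh1 (1.33). Cdh2 and Cdh11 both fell, but leaving out 1 library at a time lost the call of Cdh2 in 2 fits and that of Cdh11 in 3. In this line the astrocyte sum was at 200.5 CPM against 355, the fibroblast and mural sum at 11146 against 30065, the oligodendrocyte lineage sum at 161 against 274 and the endothelial sum at 6.83 against 11.95, and 6 of the 9 astrocyte markers fell while 3 rose. Of the 7 fibroblast and mural markers 1 rose and 3 fell (median -0.04), so the lower sum was not shared by the whole list.

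In male p53Y217C the alpha row had the largest rise of any member in the 3 male comparisons. Of all genes 34.9% rose and 35.6% fell. The classical cadherins showed 3 higher and 7 lower (median -0.87), the clustered rows 9 higher and 1 lower (median 0.61) and the other members 5 higher and 5 lower (median 0.09), beside a median of 0.00025 over all genes. The alpha row rose by 5.74 ± 0.15, adjusted p = 5.02e-20. The single clustered gene that fell, Pcdhb16 (-0.47 ± 0.17, adjusted p = 0.0168), had overlapping libraries and lost the call without replicate 2 of male p53Y217C (adjusted p = 0.105) or replicate 2 of male p53 KO (adjusted p = 0.141). Cdh22 had the largest rise of the Cdh genes (4.89 ± 0.44, adjusted p = 1.39e-09) and Cdh3 the largest fall (-4.33 ± 0.15, adjusted p = 1.05e-17), and Cdh13 rose by 3.92. Pcdh1 rose most (1.99 ± 0.27, adjusted p = 5.64e-07) and Pcdh10 fell most (-3.18 ± 0.41, adjusted p = 2.18e-07) among the non-clustered genes, where Pcdh19 fell by 2.11 and Pcdh7 fell by 2.07 on the log2 scale. Beside these changes the summed astrocyte markers were at 513 CPM against 355 in male p53 KO, with 7 of 9 higher and 0 lower, as also at an unadjusted p of at most 0.05 and by DESeq2, with 1 lower by limma. The oligodendrocyte lineage sum was at 65.6 against 274, the fibroblast and mural sum at 20422 against 30065 and the endothelial sum at 2.62 against 11.95 CPM.

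In female p53R172H Cdh2 fell while Cdh3 and Cdh11 rose. Over all genes 34.4% rose and 35.3% fell. Of the classical cadherins 3 rose and 5 fell (median -0.77), of the clustered rows 7 rose and 2 fell (median 0.42), and of the other members 4 rose and 3 fell (median 0.09), beside -0.0096 over all genes. Cdh1 had the largest rise (5.65 ± 0.45, adjusted p = 8.8e-11) and Cdh15 the largest fall (-4.296 ± 0.42, adjusted p = 2.43e-09), both from levels under 3 CPM. At higher levels, Cdh3 rose by 2.802 and Cdh11 by 0.97, while Cdh2 fell by 1.35, Cdh10 fell by 2.93 and Cdh18 fell by 3.94 on the log2 scale. Pcdhb9 rose most of the clustered rows (1.51 ± 0.29, adjusted p = 5.54e-05). Pcdhb15 fell most (-0.70 ± 0.28, adjusted p = 0.0301), and its call was lost without replicate 1 (adjusted p = 0.0998) or replicate 3 (adjusted p = 0.101) of female p53R172H or replicate 3 of female p53 KO (adjusted p = 0.141). Pcdh9 rose most (0.72 ± 0.13, adjusted p = 5.06e-05) and Pcdh1 fell most (-1.68 ± 0.40, adjusted p = 0.000663) of the non-clustered genes. In the same comparison the astrocyte sum was at 639.9 CPM against 356, the fibroblast and mural sum at 40764 against 25785, the oligodendrocyte lineage sum at 345 against 288 and the endothelial sum at 15.5 against 16.4, with 4 of 9 astrocyte markers higher and 1 lower and 6 of 7 fibroblast and mural markers higher and 1 lower.

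In female p53Y202C the clustered protocadherins that passed the test had 1 direction, with 11 of 13 rows higher and 0 lower (median 1.19), where 34.3% of all genes rose and 34.3% fell. By edgeR at an unadjusted p of at most 0.05, by limma and by DESeq2 the counts were also 11 and 0. Of the classical cadherins 4 rose and 6 fell (median -0.71) and of the other members 5 rose and 4 fell (median -0.21), with a median of -0.0016 over all genes. Pcdhb14 had the largest rise of the clustered rows (2.03 ± 0.20, adjusted p = 3.79e-09), and the rows that did not pass were Pcdhb5 and the alpha row. Cdh1 had the largest rise of the Cdh genes (4.77 ± 0.47, adjusted p = 3.79e-09). Cdh2 had the largest fall (-1.28 ± 0.08, adjusted p = 4.79e-13), while Cdh11 rose by 1.02. Pcdh7 rose most (0.51 ± 0.05, adjusted p = 5.36e-09) and Pcdh11x fell most (-3.59 ± 0.37, adjusted p = 1.94e-08) among the non-clustered genes. Among the markers the astrocyte sum was at 347 CPM against 356, the fibroblast and mural sum at 36162 against 25785, the oligodendrocyte lineage sum at 383 against 288 and the endothelial sum at 6.53 against 16.4, with 5 of 7 fibroblast and mural markers higher and 1 lower. Of the 9 astrocyte markers 3 rose and 1 fell.

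In female p53Y217C Cdh3 and Cdh11 rose, and 0 of the 11 members outside the classical and clustered families did, also at an unadjusted p of at most 0.05 in edgeR, by limma and by DESeq2. Of all genes 28% rose and 28.7% fell. Of the classical cadherins 2 rose and 5 fell (median -0.47, or -0.22 with Cdh22, the gene at 0 counts, set to a bound that gives no fold), of the clustered rows 7 rose and 4 fell (median 0.29), and of the other members 0 rose and 8 fell (median -0.80), against 0.004 over all genes. The 2 classical cadherins that rose were Cdh3 (2.09 ± 0.09, adjusted p = 9.73e-15) and Cdh11 (0.78). Cdh13 fell most of the Cdh genes, with a ratio of female p53 KO to female p53Y217C of 120.1 and a 95% counting interval of 21.2 to 4774, since 1 count was left (adjusted p = 2.02e-08). Pcdh11x, with 0 counts, was at least 29.1-fold lower than in female p53 KO, taking 3 counts per library as the floor (adjusted p = 2.12e-10). Cdh22, counted among the 5 classical cadherins that fell, also had 0 counts, and both lines were at or near the floor, so no fold is given. Its call was lost in 4 of the fits that left out 1 library. Among the clustered rows Pcdhb18 rose most (1.29 ± 0.15, adjusted p = 6.88e-08) and Pcdhb22 fell most (-0.87 ± 0.09, adjusted p = 8.05e-09). Pcdh7 fell by 1.08 on the log2 scale. For the marker lists the astrocyte sum was at 269.5 CPM against 356, the fibroblast and mural sum at 27218 against 25785, the oligodendrocyte lineage sum at 223 against 288 and the endothelial sum at 8.08 against 16.4. Although their sum was lower, 3 of the 4 oligodendrocyte lineage markers rose and 1 fell (median 0.72). Of the 7 fibroblast and mural markers 4 rose and 1 fell, and of the 9 astrocyte markers 1 rose and 3 fell.

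**Figure D4:**
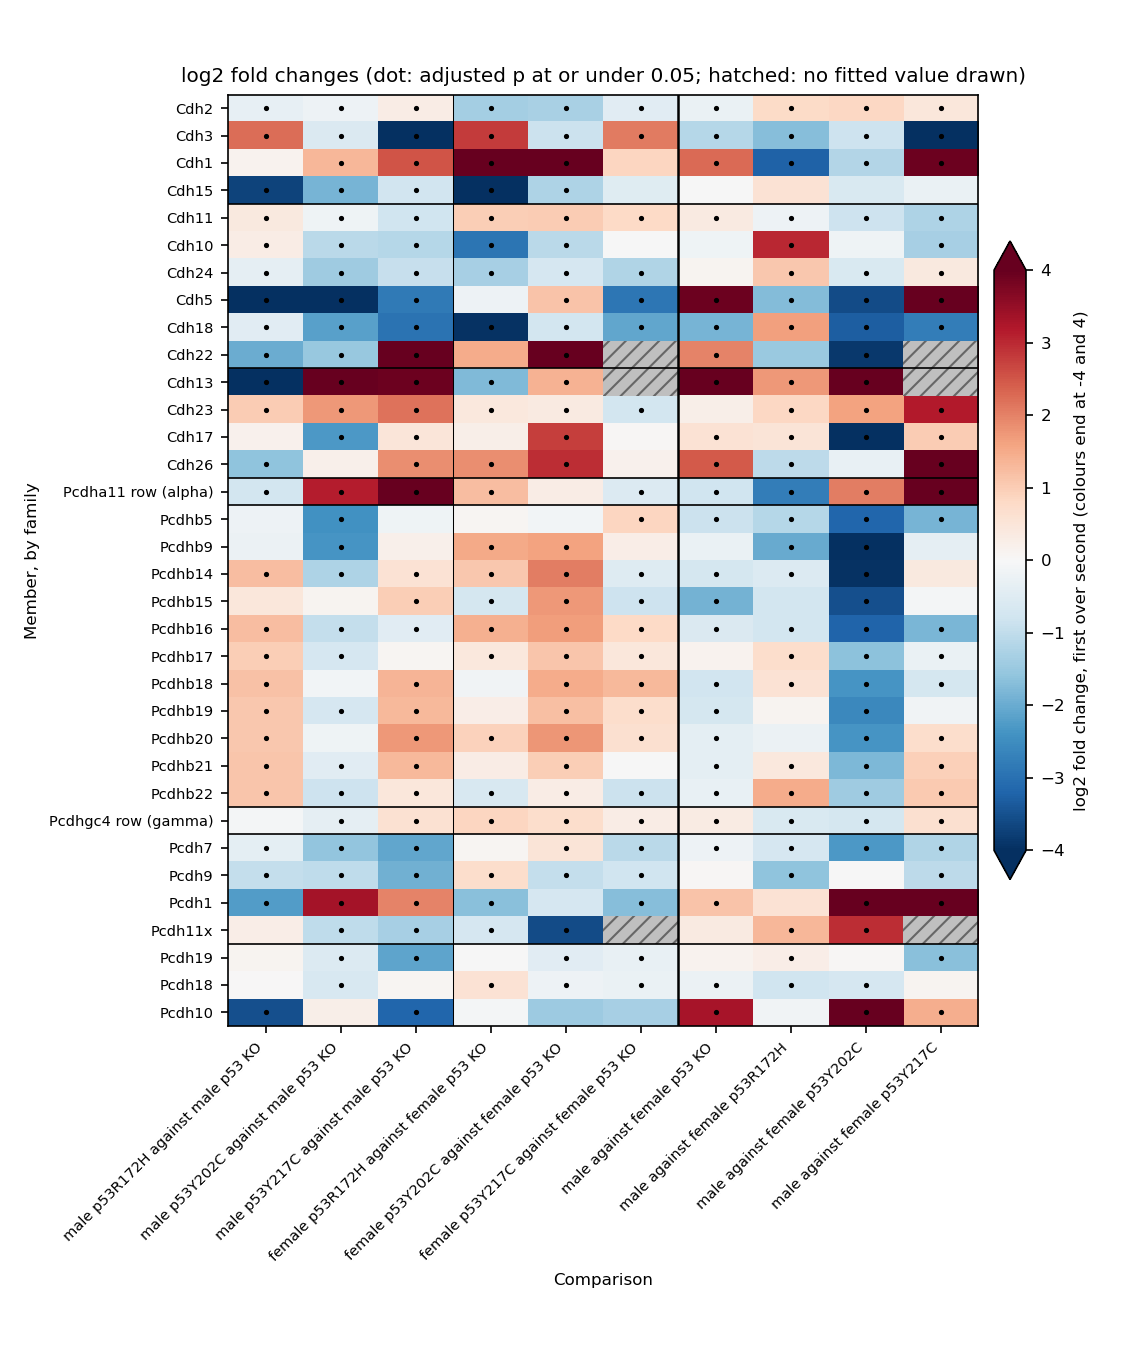
log2 fold changes of the 34 members (rows, by family) in the 10 comparisons of 2 lines (columns), red for higher and blue for lower in the line named first, with colours ending at -4 and 4, dots for an adjusted p of at most 0.05 (267 cells) and 6 hatched cells where a line had 0 counts or 1 count and no fitted value is drawn. The block of beta genes is blue in male p53Y202C against male p53 KO, red in female p53Y202C against female p53 KO, and blue in male against female p53Y202C.

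The second question is whether males and females differ at the same genotype, for which each male line was compared with the female line. Without a mutant, in p53 KO, 17.2% of all genes were higher and 13.8% lower in males. The clustered rows were lower for the most part, with 1 higher and 10 lower of 13 (median -0.58); 4 classical cadherins were higher and 3 lower (median 0.05), and 5 of the other members were higher and 2 lower (median 0.37), against 0.0032 over all genes. The clustered row that was higher was the gamma row (0.33 ± 0.04, adjusted p = 2.29e-06), and Pcdhb15 was the lowest relative to females (-1.88 ± 0.31, adjusted p = 4.21e-05). Cdh13 was higher in males (4.02 ± 0.16, adjusted p = 2.53e-15), as was Cdh5 (3.92), and Cdh18 was lower (-1.86 ± 0.15, adjusted p = 1.13e-09). Of the non-clustered genes Pcdh10 was higher (3.29 ± 0.40, adjusted p = 5.5e-07) and Pcdh18 lower (-0.24 ± 0.06, adjusted p = 0.00458).

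In p53R172H, 32.4% of all genes were higher and 29.7% lower in males. Of the classical cadherins 4 were higher and 4 lower (median 0.19), of the clustered rows 4 higher and 6 lower (median -0.56), and of the other members 5 higher and 4 lower (median 0.25), beside 0.021 over all genes. Cdh10 was most raised (3.03 ± 0.10, adjusted p = 1e-17) and Cdh1 most lowered (-3.24 ± 0.36, adjusted p = 3.24e-08) in males, and Cdh2 was higher (0.78). Of the clustered rows Pcdhb22 was higher (1.47 ± 0.08, adjusted p = 1.72e-13) and the alpha row lower (-2.77 ± 0.16, adjusted p = 3.53e-13). Of the non-clustered genes Pcdh11x was higher (1.32 ± 0.26, adjusted p = 0.00017) and Pcdh9 lower (-1.62 ± 0.14, adjusted p = 4e-10).

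In p53Y202C every clustered row differed between the sexes, 1 higher and 12 lower in males (median -2.35), where 37.7% of all genes were higher and 37.7% lower with a median of -0.014. The row that was higher was the alpha row (2.04 ± 0.14, adjusted p = 2.54e-12), and Pcdhb9 had the largest difference among those lower (-4.24 ± 0.39, adjusted p = 5.25e-10). Of the classical cadherins 1 was higher, Cdh2 (0.82), and 7 lower (median -0.84), and of the other members 5 were higher and 3 lower (median 0.06). Cdh13 was higher in males (6.700 ± 0.15, adjusted p = 1.14e-21) and Cdh17 lower (-4.48 ± 0.23, adjusted p = 7.68e-15). Pcdh1 was higher (5.16 ± 0.33, adjusted p = 8.62e-13) and Pcdh7 lower (-2.29 ± 0.05, adjusted p = 3.96e-21).

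In p53Y217C, 33.4% of all genes were higher and 34.6% lower in males. The classical cadherins had 5 higher and 4 lower (median 0.06), the clustered rows 5 higher and 4 lower (median -0.09), and the other members 7 higher and 3 lower (median 1.45), against -0.013 over all genes. Cdh13 was 29646 times as high in male p53Y217C, with a 95% counting interval from 5321 to 1.17e+06 that rests on 1 count in females (adjusted p = 8.63e-23). Cdh3 was lower in males (-7.57 ± 0.14, adjusted p = 9.27e-23). Cdh22 was at least 106.4-fold and Pcdh11x at least 14.8-fold higher in males, since females had 0 counts. The alpha row was higher (5.48 ± 0.15, adjusted p = 7.02e-20) and Pcdhb5 lower (-1.87 ± 0.21, adjusted p = 3.13e-08), and Pcdh19 was lower (-1.68 ± 0.06, adjusted p = 5.02e-17).

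Whether the effect of a mutation differs between the sexes was tested as an interaction, the change in males minus the change in females. For p53R172H 9 classical cadherins, 9 clustered rows and 8 other members passed, where 58% of all genes did. For p53Y202C 7, 13 and 9 passed, where 68% of all genes did, and 12 of the 13 clustered rows had the more negative change in males (median -1.77). For p53Y217C 7, 11 and 9 passed, where 54.8% of all genes did. Cdh2 was among them for all 3 mutations, with interactions of 1.04 ± 0.11 for p53R172H, 1.08 ± 0.11 for p53Y202C and 0.73 ± 0.11 for p53Y217C. Cdh11 had the opposite sign each time, with -0.57 ± 0.11, -1.202 ± 0.11 and -1.59 ± 0.11 in the same order. For the gamma row the interactions were -0.94 ± 0.06, -1.04 ± 0.06 and 0.32 ± 0.06. For p53Y202C the share of classical cadherins was near that of all genes.

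The genes around the members were counted in the same 6 comparisons with p53 KO. There, as given above, 20.2% of all genes rose and 20.5% fell in male p53R172H, 37.6% of all genes rose and 35.4% fell in male p53Y202C, 34.9% of all genes rose and 35.6% fell in male p53Y217C, 34.4% of all genes rose and 35.3% fell in female p53R172H, 34.3% of all genes rose and 34.3% fell in female p53Y202C and 28% of all genes rose and 28.7% fell in female p53Y217C, and the counts of each list below stand beside these shares.

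The catenins, which join classical cadherins to actin, are in the table with 11 of 12 genes. Ctnnb1, the beta-catenin, lay between 460.3 and 839 CPM, and Ctnna1, the main alpha-catenin, between 492 and 619.7. The numbers of them that rose and fell against p53 KO were 2 and 3 in male p53R172H, 5 and 4 in male p53Y202C, 5 and 5 in male p53Y217C, 3 and 7 in female p53R172H, 1 and 8 in female p53Y202C and 3 and 4 in female p53Y217C. In female p53R172H 7 of the 11 fell, where 35.3% of all genes did, with a median log2 fold change of -0.49, and in female p53Y202C 8 of the 11 fell, where 34.3% of all genes did (median -0.41), the 2 lines with the lowest Cdh2. Ctnnd2, a neural delta-catenin, had the largest fall in both (-1.77 ± 0.13, adjusted p = 1.06e-11 and -2.26 ± 0.14, adjusted p = 5.86e-13). Ctnna2, the neural alpha-catenin, rose in male p53Y217C (3.51 ± 0.27, adjusted p = 4.21e-11) and male p53Y202C (2.03 ± 0.27, adjusted p = 3.19e-07), the lines with high Cdh13, and Jup, the plakoglobin of junctions, fell in male p53Y202C (-2.38 ± 0.06, adjusted p = 3.74e-20). Whether the catenins are related to the levels of Cdh2 or Cdh13 was not tested.

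Of 27 other genes of the cadherin superfamily 10 are in the table. Fat1, a giant cadherin, was the most counted of them with 664 to 1551 CPM. The numbers of rises and falls against p53 KO were 2 and 2 in male p53R172H, 3 and 6 in male p53Y202C, 3 and 5 in male p53Y217C, 3 and 4 in female p53R172H, 4 and 4 in female p53Y202C and 1 and 5 in female p53Y217C. In male p53R172H the 2 rises and 2 falls of 10 were near the 20.2% and 20.5% of all genes, and in male p53Y202C 6 of 10 fell, where 35.4% of all genes did. Fat4 and Dchs1 encode a receptor and ligand pair of planar polarity: Fat4 fell in male p53Y202C (-2.96 ± 0.13, adjusted p = 1.74e-15) and rose in female p53R172H (1.63 ± 0.12, adjusted p = 1.29e-11), and Dchs1 fell in female p53Y202C (-2.41 ± 0.10, adjusted p = 3.34e-16) and male p53Y217C (-2.04 ± 0.09, adjusted p = 1.72e-15). Celsr1, a cadherin receptor of the same polarity system, rose in male p53Y217C (2.901 ± 0.18, adjusted p = 8.02e-13).

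The regulators that set the use of clustered protocadherin start sites were all measured, 20 of 20. Rises and falls against p53 KO numbered 4 and 2 in male p53R172H, 5 and 12 in male p53Y202C, 4 and 9 in male p53Y217C, 3 and 9 in female p53R172H, 3 and 11 in female p53Y202C and 3 and 9 in female p53Y217C. Ctcf, the looping factor, lay between 59.8 and 84.9 CPM. In male p53Y202C, where the beta genes were lowest, 12 of the 20 fell, where 35.4% of all genes did, and Tet1, an enzyme that oxidises methylated cytosine, had the largest fall (-2.52 ± 0.18, adjusted p = 8.41e-12). Dnmt1, the maintenance DNA methyltransferase, was at 145 CPM there and at 187 in female p53Y202C, where the beta sum was highest, against 338 and 340.1 in the p53 KO lines. In that female line 11 of the 20 regulators fell, where 34.3% of all genes did. Whether the regulators and the beta genes are related was not tested.

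Repressors of classical cadherin genes are in the table with 7 of 8. Against p53 KO the rises and falls numbered 3 and 3 in male p53R172H, 5 and 2 in male p53Y202C, 2 and 4 in male p53Y217C, 3 and 2 in female p53R172H, 3 and 2 in female p53Y202C and 1 and 3 in female p53Y217C. The 5 of 7 that rose in male p53Y202C stood beside 37.6% of all genes, and the 4 of 7 that fell in male p53Y217C beside 35.6%. Snai1 fell in male p53Y202C (-2.25 ± 0.06, adjusted p = 1.27e-19) and male p53Y217C (-1.95 ± 0.06, adjusted p = 9.78e-19) and rose in female p53Y202C (0.92 ± 0.06, adjusted p = 1.22e-12), and Zeb1 rose in male p53Y217C (1.07 ± 0.06, adjusted p = 1.44e-13). The proteases that shed cadherins were counted with 8 of 8, and their rises and falls against p53 KO numbered 2 and 1 in male p53R172H, 3 and 4 in male p53Y202C, 4 and 0 in male p53Y217C, 5 and 2 in female p53R172H, 4 and 1 in female p53Y202C and 3 and 2 in female p53Y217C. The 5 of 8 that rose in female p53R172H stood beside 34.4% of all genes. The 0 falls in male p53Y217C were also 0 at an unadjusted p of at most 0.05 in edgeR, by limma and by DESeq2. Adam10, the sheddase of N-cadherin, had its largest rise in female p53Y217C (0.49 ± 0.06, adjusted p = 6.44e-07), and Psenen, a part of gamma-secretase, rose in male p53Y202C (0.85 ± 0.10, adjusted p = 3.41e-08) and male p53Y217C (0.85 ± 0.10, adjusted p = 3.95e-08).

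Signalling partners of clustered protocadherins, which comprise the kinases Ptk2 and Ptk2b and the WAVE complex, were measured with 13 of 13. Genes that rose and fell against p53 KO numbered 3 and 5 in male p53R172H, 4 and 3 in male p53Y202C, 3 and 6 in male p53Y217C, 3 and 8 in female p53R172H, 3 and 8 in female p53Y202C and 2 and 6 in female p53Y217C. Ptk2b rose in female p53R172H (2.41 ± 0.09, adjusted p = 1.14e-16), and Fyn, a kinase of the Src family, in male p53Y202C (1.21 ± 0.05, adjusted p = 5.08e-17). Cyfip2, a WAVE subunit, fell in female p53R172H (-2.08 ± 0.21, adjusted p = 5.53e-09), female p53Y202C (-2.15 ± 0.23, adjusted p = 1.17e-08) and female p53Y217C (-1.503 ± 0.21, adjusted p = 1.65e-06). The 8 of 13 that fell in female p53R172H and in female p53Y202C stood beside 35.3% and 34.3% of all genes. In the 6 comparisons the falls of this list ranged from 3 to 8 genes and the rises from 3 to 4 outside female p53Y217C, where 2 rose.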

How the data were processed

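RNA sequencing of 24 libraries, 3 for each of 8 astrocyte lines, was analysed from the table of counts that the authors deposited. Per the labels and the study's methods, the authors aligned reads with STAR (version 2.5.1a) and let featureCounts of Subread assign to each gene the reads with a single alignment and a single gene. They left out ribosomal genes and genes with low counts, and the deposited counts were not normalised. The genes follow an Ensembl annotation older than GENCODE M21, whose symbols named 14350 of the 14427 rows. The strand setting is not given in the sources used here. No other column of values per sample was present.

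Counts were scaled by TMM and fitted with edgeR (version 4.0.16, R version 4.3.3) as 1 mean per line over all 24 libraries, and each contrast was tested by quasi-likelihood with Benjamini-Hochberg adjustment over 14427 genes at 0.05. Standard errors are the log2 fold change over the root of F. A filter of more than 1 CPM in at least 2 libraries left every gene in. The 13 contrasts were each mutant line against p53 KO of its sex (6), male against female per genotype (4) and the interaction per mutation (3). Ratios that rest on 0 counts are bounds at 3 counts per library. A 95% counting interval is given where 1 line had some counts but no more than this floor in any library. The same floor set which cells of the fold change figure are hatched. The intervals cover counting error only. The script was tested on simulated data.

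Alternatives were limma (version 3.58.1, voom with quality weights), DESeq2 (version 1.42.0), DESeq2 size factors, library totals only, no filter, a filter of 10 counts in 12 libraries, the replicate number as a block, only the lines compared, and leaving out each library. Counts of replicate libraries differed beyond counting noise (chi-square per degree of freedom of 6.84 to 59.2). Separate animals do not stand behind the 3 libraries of a line, so the p-values measure the spread between these libraries, which may be technical.

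The members and the gene lists were chosen with earlier results of these data known. Values of every library are given for classical cadherins and non-clustered protocadherins of at least 5 CPM in any line, for the alpha and gamma rows and for the 2 beta genes with the highest means. For each contrast the largest rise and fall past the threshold in each family are named, and for each interaction the 3 largest. From the other lists at most the largest rise and fall per contrast are named. The library values of Cdh13 and Cdh23, and other changes of members named in passing, were chosen after their values were seen. Levels per kilobase use exons that belong to 1 gene. Promoter sequences are those of RefSeq on GRCm38.p6, and were searched only for the 19 members that lie off chromosome 18, which leaves out Cdh2, Pcdh1 and the 13 clustered rows. Of the 19, none was given for Cdh1, Cdh3, Cdh5, Cdh11, Cdh13, Cdh17 and Pcdh11x.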

Additional observations from a re-analysis of the deposited data

Results flagged for a closer look

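For 9 pairs of a member and a mutation, the 3 with the greatest interaction for each mutation among the members, the change against p53 KO differed between males and females in edgeR's test of the interaction. For p53R172H the change in males minus that in females was -5.66 ± 0.38 (log2, SE, adjusted p = 5.34e-12) for Cdh5, -5.50 ± 0.63 (adjusted p = 8.2e-08) for Cdh1 and 3.496 ± 0.23 (adjusted p = 6.27e-12) for Cdh18. For p53Y202C it was -7.48 ± 0.39 (adjusted p = 2.77e-14) for Cdh5, -5.83 ± 0.90 (adjusted p = 5.96e-06) for Cdh22 and -5.06 ± 0.30 (adjusted p = 3.02e-13) for Cdh17. The Cdh22 value also rests on low counts, with 0.154 CPM in male p53 KO and female p53 KO at or near the floor. It lay between -6.59 and -5.30 when single libraries were left out. The fall of Cdh22 in male p53Y202C against p53 KO missed the threshold in 4 such fits. For p53Y217C the fitted interactions were 10.42 (adjusted p = 3.14e-14) for Cdh13, 9.71 (adjusted p = 7.35e-05) for Cdh22 and 8.49 (adjusted p = 1.13e-07) for Pcdh11x, and these rest on 0 counts or 1 count in female p53Y217C, so that their size depends on the fit and is no bound.

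Cdh5, the VE-cadherin, had the greatest interaction for 2 of the 3 mutations, and both start from its level of 31.8 to 35.5 CPM in the male p53 KO libraries, which all 3 male comparisons share.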

How the results depend on the processing

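Of the 355 pairs of a member and a contrast past the threshold, 0 changed direction under the alternatives in which they were tested, and 33 missed the threshold without at least 1 library. The number of calls lost was 3 with limma, 5 with library totals only, 1 of the 344 pairs still tested with the stricter filter, 4 of the 324 still tested with only the lines compared and 0 with DESeq2, with DESeq2 size factors and without a filter. With only the lines compared, 4 rather than 7 of the other members passed in female p53R172H against p53 KO, since Cdh13, Cdh26 and Pcdh1 were below 1 CPM in both lines and were not tested there. The mean of the gamma row in female p53Y217C was 498.6 CPM with DESeq2 size factors against 501.2, and with library totals only the beta sum was 53.3 against 49.8 CPM in male p53Y217C and 49.4 against 48.3 in female p53Y217C. Library totals only moved the median of all genes in male p53Y217C against p53 KO by 0.104. The fall of Pcdhb16 there missed the threshold with library totals only (adjusted p = 0.0573) and with only the lines compared (adjusted p = 0.0711). With the replicate number as a block, 3 calls were lost, those of Cdh22 in male p53Y202C (adjusted p = 0.0575), Pcdhb14 in female p53Y217C (0.0579) and Cdh24 in the p53Y217C interaction (0.0594). The numbers did not pair the libraries, since deviations from the line means correlated by -0.0116 on average for equal numbers (-0.313 to 0.245, 84 pairs) and by 0.0057 for unequal ones, and 5 of 24 libraries correlated best with their own number. The cause of the other changes was not tested. Members near the floor, such as Cdh22, Pcdh11x and Pcdh10, are the least precise.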
